A study of Mus musculus with 56 samples.

Results

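9 genes of T cell receptor signalling were read in sorted bone marrow progenitors of C57BL/6 mice: Lck, Lat, Zap70, Cd3d, Cd3e, Cd3g, Cd247, Txk and Fyb. They were taken by symbol from a deposited table of 24424 genes named by Entrez ID, and 9 of 9 were found. Expression was measured by RNA-seq in 4 groups that cross 2 genotypes with 2 populations. Wild-type (WT) mice were compared with Tet2-/-Flt3ITD mice (T2F3), which have no functional Tet2, a DNA dioxygenase that turns 5-methylcytosine into 5-hydroxymethylcytosine, and whose Flt3 gene, for a cytokine receptor of early progenitors, carries a tandem duplication. Multipotent progenitors (MPP) were sorted as lin- Sca+ cKit+ CD48+ CD150- cells, and granulocyte-macrophage progenitors (GMP) as lin- Sca- cKit+ cells that carried CD34 and the Fc gamma receptors encoded by Fcgr3 and Fcgr2b. MPP were represented by 4 WT and 3 T2F3 libraries, and GMP by 5 WT and 3 T2F3 libraries. The titles place both genotypes in a leukemia experiment. The labels name no age, sex or treatment, no cell type to which either allele is limited, and no animal behind a library, so p-values measure the spread between libraries, which may be technical in part.

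In T cells the antigen receptor has no enzyme of its own and signals through the CD3 chains and the zeta chain. Lck, a kinase of the Src family, phosphorylates tyrosines in the tails of these chains, Zap70 binds there and phosphorylates the membrane adaptor Lat, and Lat gathers the enzymes that raise calcium and switch on Ras. MPP lie upstream of the lymphoid and myeloid lineages, GMP belong to the myeloid branch, and neither displays a T cell receptor, while related kinases, adaptors and chains serve the Fc, B cell and other receptors of myeloid and B cells.

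Promoter windows of the 3 genes that were read well enough to be tested, Lck, Lat and Fyb, are shown because their values carry the findings below. They are RefSeq windows of 300 bases on the GRCm38.p6 assembly, from 250 bases before to 50 bases after a transcript start, written 5′ to 3′ on the gene's strand. Capitals mark letters searched on both strands, and matches may overlap. For GATA factors these letters were GATA, and for RUNX factors they were TGTGGT. The letters searched for ETS factors were CCGGAA and, as another form, GAGGAA. For the E-box they were CANNTG.
Lck, upstream start, chr4:129573592-129573891, minus strand: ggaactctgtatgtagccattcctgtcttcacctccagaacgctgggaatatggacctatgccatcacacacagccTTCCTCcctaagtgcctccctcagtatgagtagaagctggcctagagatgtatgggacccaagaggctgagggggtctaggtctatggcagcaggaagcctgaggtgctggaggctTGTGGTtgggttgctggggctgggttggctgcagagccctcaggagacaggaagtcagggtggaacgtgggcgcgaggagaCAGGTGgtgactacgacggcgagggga
Lck, downstream start, chr4:129558323-129558622, minus strand: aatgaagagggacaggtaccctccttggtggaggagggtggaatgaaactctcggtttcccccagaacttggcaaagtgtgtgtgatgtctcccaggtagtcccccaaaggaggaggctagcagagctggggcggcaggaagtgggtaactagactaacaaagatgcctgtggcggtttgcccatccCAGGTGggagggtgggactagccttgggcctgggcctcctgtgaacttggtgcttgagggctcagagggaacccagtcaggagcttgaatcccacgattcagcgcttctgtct
Lat, chr7:126369519-126369818, minus strand: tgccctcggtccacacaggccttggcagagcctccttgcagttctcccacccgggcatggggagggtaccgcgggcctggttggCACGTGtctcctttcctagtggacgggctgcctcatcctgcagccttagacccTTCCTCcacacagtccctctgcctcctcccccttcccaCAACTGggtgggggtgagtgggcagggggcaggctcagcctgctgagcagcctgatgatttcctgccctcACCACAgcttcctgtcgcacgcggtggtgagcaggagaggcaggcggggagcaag
Fyb, chr15:6579597-6579896, plus strand: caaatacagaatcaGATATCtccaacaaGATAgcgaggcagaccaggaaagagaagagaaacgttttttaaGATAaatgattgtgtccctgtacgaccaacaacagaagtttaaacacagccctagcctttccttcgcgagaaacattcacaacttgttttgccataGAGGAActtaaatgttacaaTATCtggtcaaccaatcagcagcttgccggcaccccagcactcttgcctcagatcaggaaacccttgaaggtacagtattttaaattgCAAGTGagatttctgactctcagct

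The Fyb window held 5 matches to GATA, while both Lck windows and the Lat window held 0. The RUNX letters occurred 1 time in the upstream Lck window and 1 time in the Lat window, and the E-box letters were in all 4 windows. GATA letters were present in 57.9% of 32851 RefSeq mouse windows of this length, the RUNX letters in 16.8%, the ETS letters in 39.3% and the E-box letters in 72.3%. Over the 13 windows of the 9 genes, 8 held GATA, 4 the RUNX letters, 7 the ETS letters and 12 the E-box letters. Cd3g, Cd3d and Cd3e lay next to each other on chromosome 9, and Txk lay beside Tec, another kinase of its family, on chromosome 5. A match describes the letters only.

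Values are log2 expression values that the authors had normalized and shrunk, in which 1 unit is a doubling. They ran from -3.82 to 19.64 over the table, hold no counts, and leave the read depth of each library unknown. A gene was tested where its values averaged 4 or more across the 15 libraries, which 12133 genes met, and Lck, Lat and Fyb were among them. The other 6 stayed under that filter, with means from 2.08 for Cd3g to 3.11 for Cd247, and are given by their values, since differences of low genes are compressed by the shrinkage and the low values also move with depth. The gene-level value of Tet2 lay between 9.71 and 9.89 in WT MPP and between 9.67 and 9.9 in T2F3 MPP, and between 9.87 and 10.19 in WT GMP and between 9.88 and 10.3 in T2F3 GMP. The labels do not say which part of Tet2 was deleted, so this value does not check the genotype. 2 libraries stood apart with high values of their ribosomal protein genes, each set against the mean of the other libraries of its group. Over 74 such genes, the median offset was 1.1 log2 for WT GMP 1 and 0.86 for T2F3 GMP 2. For T2F3 GMP 3 it was -0.64.

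The CD3 chains and the zeta chain were low in all 4 groups and highest in WT MPP. Cd3e, a chain shared by the 2 signalling dimers that flank the receptor, was read at 2.92, 3.21, 3.19 and 2.56 in WT MPP and at 2.12, 2.17 and 2.06 in T2F3 MPP. It stood at 2.29, 2.19, 2.00, 1.92 and 2.11 in WT GMP and at 1.99, 2.07 and 2.10 in T2F3 GMP. The WT MPP libraries lay above all 11 others, and the other 3 groups overlapped each other.

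Cd3g, the gamma chain, averaged 2.52 ± 0.13 (SD, n = 4) in WT MPP and 1.94 ± 0.21 (SD, n = 3) in T2F3 MPP. In GMP it averaged 1.98 ± 0.16 (SD, n = 5) in WT and 1.78 ± 0.09 (SD, n = 3) in T2F3. Cd3d, the delta chain, averaged 3.12 ± 0.13 (SD, n = 4) in WT MPP and 2.56 ± 0.20 (SD, n = 3) in T2F3 MPP. In both genes the MPP of the 2 genotypes did not overlap, whereas the GMP of the 2 genotypes did. Cd3d stood at 2.64 ± 0.25 (SD, n = 5) in WT GMP and 2.49 ± 0.29 (SD, n = 3) in T2F3 GMP, and its WT GMP 1 value of 3.0 fell within the WT MPP range.

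Cd247, the zeta chain, which also serves natural killer cell receptors, was read at 3.93, 3.77, 3.73 and 3.23 in WT MPP and at 3.18, 3.34 and 3.11 in T2F3 MPP. It stood at 3.06, 2.84, 2.75, 2.61 and 2.69 in WT GMP and at 2.57, 2.86 and 2.90 in T2F3 GMP. The GMP libraries of each genotype lay below its MPP libraries, and the genotypes overlapped in both populations.

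**Figure D1:**
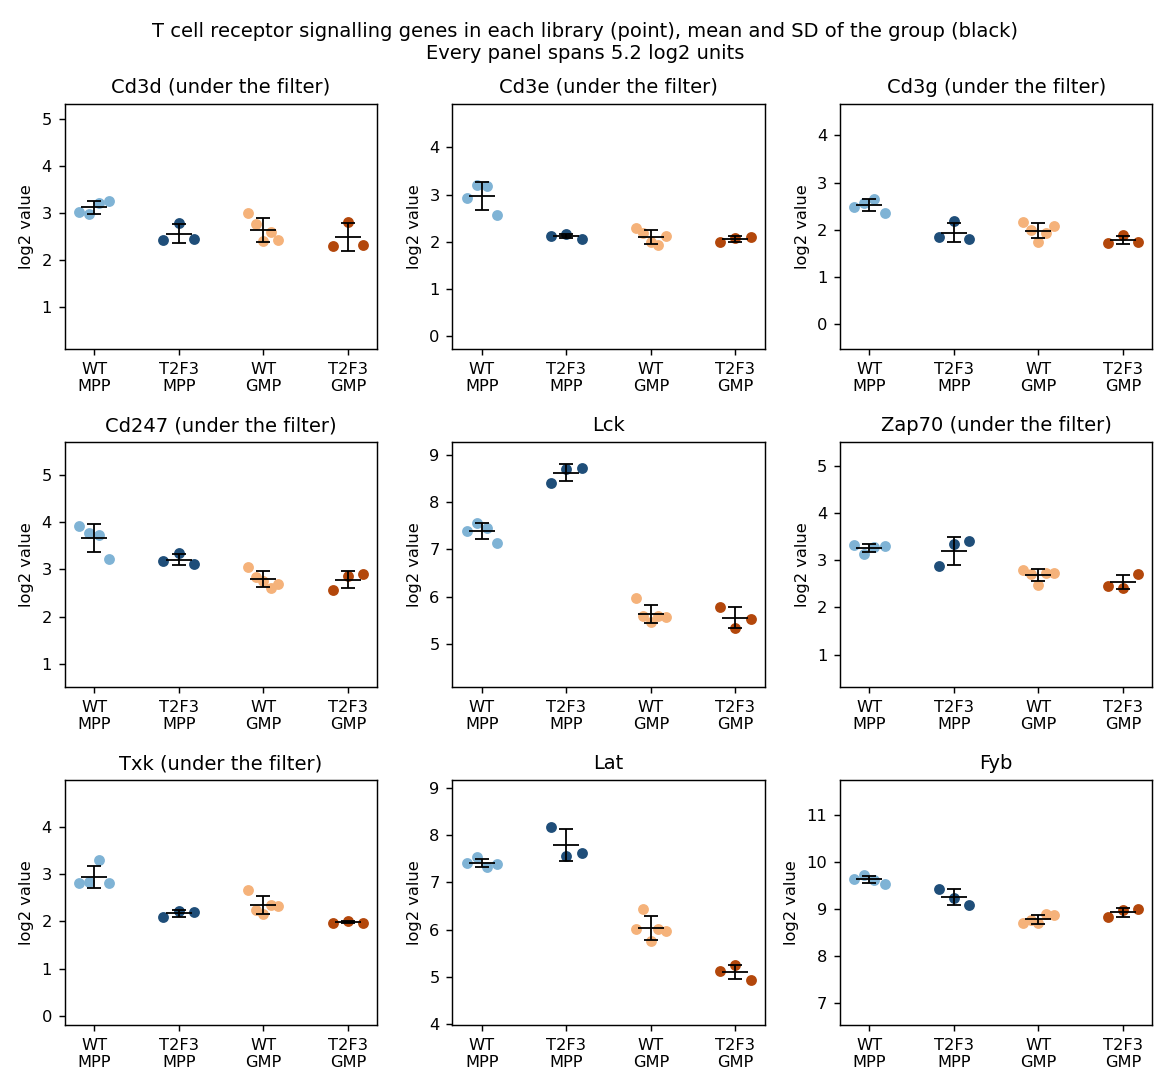
Log2 value (y axis) of each of the 9 genes in every library (points) with the group mean and SD (black), for the 4 groups on the x axis; every panel spans the same number of log2 units. Lck stands highest in T2F3 MPP at 8.62, Lat lowest in T2F3 GMP at 5.1, and the 3 CD3 genes highest in WT MPP.

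Among the kinases, Lck separated the groups. It was read at 7.39, 7.55, 7.46 and 7.14 in WT MPP and at 8.41, 8.71 and 8.73 in T2F3 MPP. It stood at 5.96, 5.59, 5.46, 5.58 and 5.57 in WT GMP and at 5.77, 5.33 and 5.53 in T2F3 GMP. Every T2F3 MPP library lay above every WT MPP library, all MPP libraries lay above all GMP libraries, and the GMP of the 2 genotypes overlapped.

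Lck rose by 1.23 ± 0.14 log2 (SE) in T2F3 MPP, 2.34-fold (limma adjusted p = 8.64e-06). In GMP the difference was -0.09 ± 0.14 (SE) with a 95% interval from -0.38 to 0.20 (limma adjusted p = 0.712). This small GMP difference changed sign, to 0.019, without T2F3 GMP 2. From MPP to GMP, Lck fell by 1.75 ± 0.13 (SE) in WT (limma adjusted p = 1.68e-08) and by 3.07 ± 0.15 (SE) in T2F3 (limma adjusted p = 2.1e-09).

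Zap70, the kinase of the SYK family that docks on the phosphorylated chains, was read at 3.32, 3.13, 3.28 and 3.31 in WT MPP and at 2.87, 3.34 and 3.40 in T2F3 MPP. It averaged 2.68 ± 0.13 (SD, n = 5) in WT GMP and 2.53 ± 0.15 (SD, n = 3) in T2F3 GMP. The MPP of the 2 genotypes overlapped, since T2F3 MPP 1 was low and the other two were above all WT MPP libraries, and within each genotype MPP lay above GMP. The means of the 2 genotypes differed by -0.06 in MPP.

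Txk, a TEC family kinase of T cells, was read at 2.81, 2.83, 3.30 and 2.82 in WT MPP and at 2.09, 2.23 and 2.20 in T2F3 MPP. It stood at 2.67, 2.24, 2.15, 2.34 and 2.33 in WT GMP and at 1.96, 2.01 and 1.97 in T2F3 GMP. T2F3 lay below WT in both populations without overlap, and the distance of the means was 0.77 in MPP and 0.37 in GMP.

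The membrane adaptor Lat had its group means in the same order as Lck, with the genotypes apart in GMP as well. It was read at 7.40, 7.54, 7.32 and 7.39 in WT MPP and at 8.18, 7.56 and 7.63 in T2F3 MPP. It stood at 6.01, 6.43, 5.75, 6.01 and 5.96 in WT GMP and at 5.13, 5.25 and 4.94 in T2F3 GMP. No group overlapped its neighbour in the order T2F3 MPP, WT MPP, WT GMP, T2F3 GMP, although T2F3 MPP 2 lay only just above the highest WT MPP library.

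Lat fell by 0.93 ± 0.15 log2 (SE) in T2F3 GMP (limma adjusted p = 0.000511). In MPP the difference was 0.38 ± 0.16 (SE), which missed the threshold (limma adjusted p = 0.0712), and without T2F3 MPP 1 it was 0.18. From MPP to GMP, Lat fell by 1.38 ± 0.14 (SE) in WT (limma adjusted p = 7.91e-07) and by 2.69 ± 0.17 (SE) in T2F3 (limma adjusted p = 2.17e-08).

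Fyb encodes an adaptor that links the Lat complex to integrins and the cytoskeleton and is made in myeloid cells as well as T cells. It was read at 9.64, 9.73, 9.62 and 9.53 in WT MPP and at 9.42, 9.23 and 9.09 in T2F3 MPP. It stood at 8.70, 8.76, 8.70, 8.89 and 8.88 in WT GMP and at 8.83, 8.97 and 8.99 in T2F3 GMP. All T2F3 MPP libraries lay below all WT MPP libraries, and the GMP of the 2 genotypes overlapped.

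Fyb fell by 0.38 ± 0.09 log2 (SE) in T2F3 MPP (limma adjusted p = 0.00469), and in GMP the difference was 0.15 ± 0.09 (SE; limma adjusted p = 0.27). It fell by 0.85 ± 0.08 (SE) from MPP to GMP in WT (limma adjusted p = 3.34e-07). In T2F3 it fell by 0.32 ± 0.10 (SE; limma adjusted p = 0.0251), a call that was lost without T2F3 MPP 1 (-0.23), T2F3 MPP 2 (-0.33) or T2F3 GMP 1 (-0.27).

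These counts stand against a table in which many genes changed. In MPP, 1 of the 3 tested genes rose and 1 fell, where 40.3% of all tested genes passed the threshold, 20.7% upward and 19.6% downward. In GMP 1 of 3 fell, beside 15.3% passing in either direction and 6.04% downward. From MPP to GMP all 3 fell in both genotypes, while 48.6% of tested genes passed in WT, 25.4% upward and 23.2% downward, and 22.2% passed in T2F3, 11.7% downward. The WT MPP and T2F3 MPP libraries of Lck, Lat and Fyb did not overlap, as was so for 54.1% of tested genes. In GMP the genotypes did not overlap for Lat, beside 17.0% of tested genes. MPP and GMP did not overlap for any of the 3, beside 43.0% in WT and 33.5% in T2F3. The comparisons share groups: WT MPP enters both the MPP difference and the WT step, so they are not independent of each other.

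Of the 6 genes under the filter, Cd3d, Cd3e, Cd3g and Txk did not overlap between the genotypes in MPP, where 15.8% of the 7156 genes under the filter did not. In GMP only Txk of these 6 did not overlap, beside 8.22%. Between MPP and GMP, 5 of the 6 did not overlap in WT, with Cd3d the exception, beside 15.0%, and 3 of the 6 in T2F3, beside 15.8%. The 7156 genes include ones read lower than these 6, so these shares are not matched for level. A matched share was not computed.

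With the filter removed, 19289 genes entered the fit and 28.2% passed in MPP. The 9 genes then gave 7 calls in T2F3 MPP, where 14.2% of genes were called lower: Lck higher, and Fyb, Cd3d, Cd3e, Cd3g, Cd247 and Txk lower. Cd3e differed by -0.85 ± 0.13 (SE; limma adjusted p = 0.000122) and Txk by -0.77 ± 0.13 (SE; limma adjusted p = 0.000238). Lat and Zap70 were not called there, with 0.38 ± 0.16 and -0.06 ± 0.13 (SE). In GMP only Lat of the 9 was called without the filter, where 9.84% of genes passed, 3.41% downward. From MPP to GMP in WT all 9 were then called lower, where 35.7% of genes passed and 19.8% did so downward. In T2F3 the 4 called lower were Lck, Lat, Zap70 and Fyb, where 16.4% passed and 9.61% did so downward. In the difference of the genotype effects Cd3e was called at 0.80 ± 0.18 (SE; limma adjusted p = 0.0256) beside Lck, Lat and Fyb. There 436 of the 19289 genes passed (2.26%). Of these, 186 had a negative difference (0.964% of all genes), as Lck and Lat did, and the rest a positive one, as Cd3e and Fyb did.

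**Figure D2:**
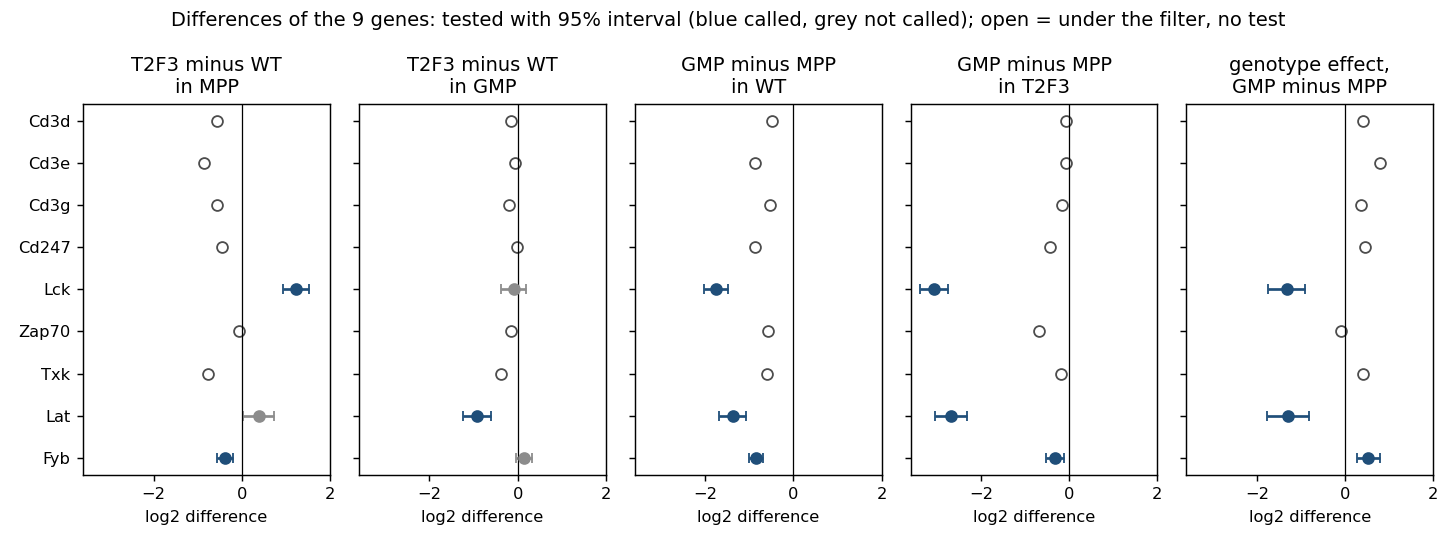
Log2 difference (x axis) of each of the 9 genes in 5 comparisons (panels), with limma's 95% interval for the 3 tested genes (blue where the adjusted p was under 0.05, grey otherwise) and open circles, without a test, for the 6 under the filter. In MPP the Lck value lies at 1.23 while 5 of the 6 open circles lie between -0.85 and -0.45, and in GMP Lat lies at -0.93.

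The difference between the 2 genotype effects was tested for the 3 genes, as T2F3 minus WT in GMP less T2F3 minus WT in MPP, and all 3 passed the threshold, beside 2.26% of tested genes, 1.38% with a positive and 0.882% with a negative difference. It was -1.32 ± 0.20 (SE) for Lck (limma adjusted p = 0.003), -1.30 ± 0.22 (SE) for Lat (limma adjusted p = 0.00675) and 0.53 ± 0.13 (SE) for Fyb (limma adjusted p = 0.0407). For Lck the genotype difference was 1.23 in MPP and -0.09 in GMP, for Lat 0.38 and -0.93, and for Fyb -0.38 and 0.15. The Lck and Lat calls held in each fit that left out 1 library, with values from -1.43 to -1.21 for Lck and from -1.42 to -1.11 for Lat. The Fyb call was lost in 9 of 15 such fits: without WT MPP 1, 3 or 4, T2F3 MPP 2 or 3, WT GMP 2 or 3, or T2F3 GMP 2 or 3, with values from 0.45 to 0.53. Its adjusted p was 0.0867 with the replicate number as a block.

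A list of 50 further genes of the pathway placed these values in context, of which 41 were tested. In T2F3 MPP 10 rose and 13 fell, with a median difference of 0.05 log2 beside -0.02 over all tested genes. The share called was 56.1%, beside 40.3% of all tested genes. Grap2 (Gads), the adaptor that joins the scaffold Slp-76 to Lat, rose by 1.81 ± 0.19 (SE; limma adjusted p = 3.38e-06), and its relative Grap by 1.45 ± 0.18 (SE).

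Sla, an adaptor that promotes loss of receptor chains, rose by 1.12 ± 0.15 (SE), the surface receptor Cd6 by 1.19 ± 0.21 (SE), and Ptprc (CD45), the phosphatase that acts on Lck, by 0.60 ± 0.12 (SE). The falls in T2F3 MPP included Plcg1, the phospholipase that Lat recruits, by 1.01 ± 0.12 (SE; limma adjusted p = 1.02e-05). Sos1, a Ras exchange factor, fell by 0.53 ± 0.13 (SE). Dgkz, which removes diacylglycerol, fell by 0.58 ± 0.10 (SE), Ubash3a, which restrains the receptor's signal, by 0.62 ± 0.12 (SE) and the ubiquitin ligase Cblb by 0.43 ± 0.10 (SE).

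In T2F3 GMP 7 of the 41 rose and 3 fell, with a median of 0.07 beside -0.02 over all tested genes. The share called was 24.4%, beside 15.3% of all tested genes. Grap2 rose by 2.17 ± 0.18 (SE), Grap by 1.44 ± 0.17 (SE) and Ptprc by 0.58 ± 0.12 (SE), so these 3 rose in both populations. Nfatc2, a calcium-regulated transcription factor, rose by 1.31 ± 0.13 (SE) and the Src family kinase Fyn by 0.50 ± 0.12 (SE). Ubash3a fell by 0.50 ± 0.12 (SE), Prkcq, the protein kinase C of T cells, by 0.48 ± 0.14 (SE) and Plcg1 by 0.38 ± 0.11 (SE). Of the genes named here for GMP, Fyn and Plcg1 overlapped between the genotypes.

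Nfatc2, named after its value was seen, was the 1 gene of the 41 whose genotype effect differed between populations, by 1.09 ± 0.19 (SE; limma adjusted p = 0.00675). Its group means were 8.66 ± 0.13 in WT MPP (SD, n = 4), 8.87 ± 0.03 in T2F3 MPP (SD, n = 3), 6.67 ± 0.10 in WT GMP (SD, n = 5) and 7.97 ± 0.38 in T2F3 GMP (SD, n = 3). The count of 1 was 2.44% of the 41, beside 2.26% of all tested genes. That count was 6 without WT GMP 1 and T2F3 GMP 2, the libraries that stood apart. In that fit 1204 of the 12133 tested genes passed, where 274 did so in the main fit.

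**Figure D3:**
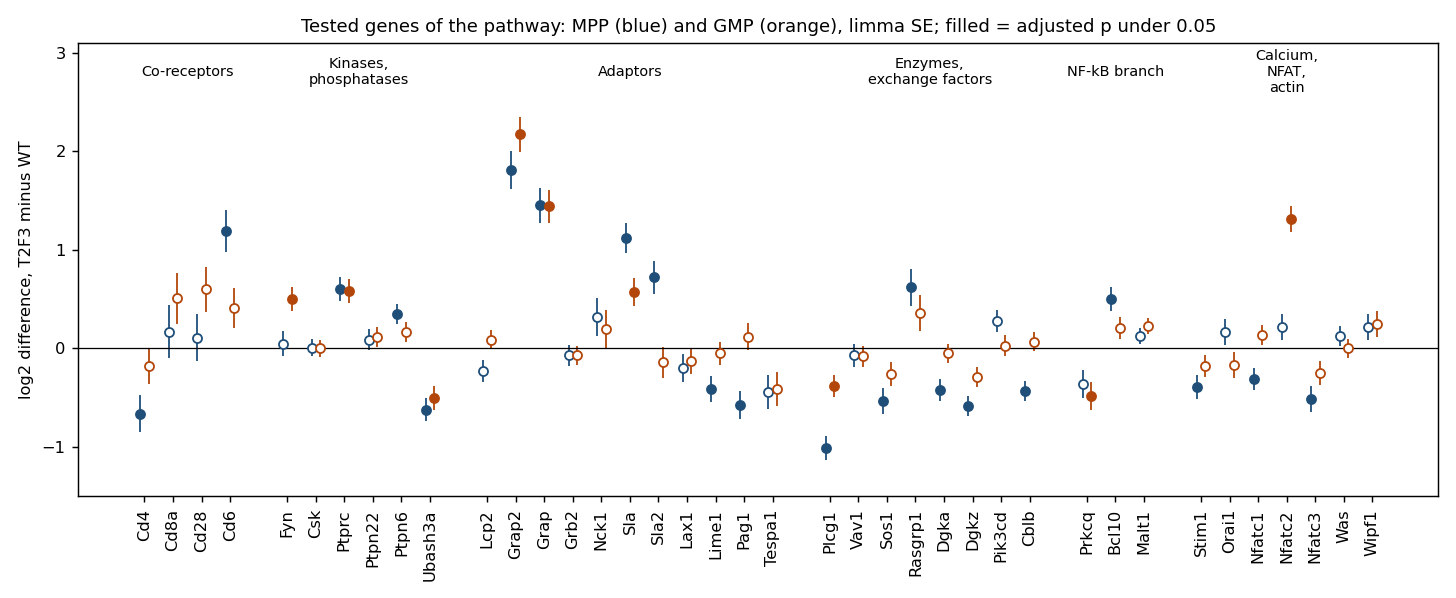
Log2 difference, T2F3 minus WT (y axis), of 39 of the 41 tested further pathway genes in MPP (blue) and GMP (orange) with limma's SE, ordered by role along the x axis; filled points had an adjusted p under 0.05. Grap2 and Grap lie above 1.3 in both populations, and Plcg1 lies lowest in MPP at -1.01.

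From MPP to GMP in WT, 8 of the 41 rose and 20 fell, with a median of -0.18 beside 0.03 over all tested genes. The share called was 68.3%, beside 48.6% of all tested genes. Lax1, an adaptor of the plasma membrane, fell by 2.25 ± 0.12 (SE), Nfatc2 by 1.99 ± 0.12 (SE), Prkcq by 1.95 ± 0.13 (SE) and Fyn by 1.31 ± 0.11 (SE). Sla rose by 0.70 ± 0.13 (SE), the calcium channel gene Orai1 by 0.48 ± 0.12 (SE), Ubash3a by 0.38 ± 0.11 (SE) and Was, a regulator of actin, by 0.35 ± 0.09 (SE).

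In T2F3 the same step gave 4 rises and 12 falls, with a median of 0.05 beside 0.01. Called were 39.0% of the genes on the list, beside 22.2% of all tested genes. Sla2 fell by 2.43 ± 0.18 (SE), Lax1 by 2.17 ± 0.15 (SE), Prkcq by 2.07 ± 0.15 (SE) and Tespa1 by 1.41 ± 0.19 (SE). Ubash3a rose by 0.50 ± 0.13 (SE), the calcium sensor gene Stim1 by 0.45 ± 0.13 (SE), Lcp2 (Slp-76) by 0.41 ± 0.11 (SE) and Dgka by 0.38 ± 0.11 (SE). The number of calls in this step was 8 without T2F3 GMP 1.

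Counterparts of the 9 genes in other receptors were listed too: 20 kinases, adaptors and signalling chains of the same families, 18 of them tested. Some genes, Fyn among them, are on this list and on the pathway list. In T2F3 MPP 9 rose and 3 fell, with a median of 0.34 beside -0.02 over all tested genes. Of the 18, 66.7% were called, beside 40.3% of all tested genes. Of the Src family, Lyn rose by 0.50 ± 0.12 (SE), from 10.02 ± 0.13 (SD, n = 4) to 10.52 ± 0.28 (SD, n = 3), and Yes1 rose by 0.58 ± 0.15 (SE), while Fyn differed by 0.05 ± 0.13 (SE; limma adjusted p = 0.787).

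Among the signalling chains, 2 that serve myeloid and natural killer cell receptors rose in T2F3 MPP, where the means of the 3 CD3 genes were lower. Fcer1g, the common Fc receptor chain, rose by 1.07 ± 0.15 (SE) and Tyrobp (DAP12) by 1.28 ± 0.25 (SE). Cd79a, a chain of the B cell receptor, fell by 2.46 ± 0.25 (SE). Syk, which stands to Fc and B cell receptors as Zap70 does to the T cell receptor, fell by 0.55 ± 0.12 (SE; limma adjusted p = 0.00301). Skap2, the myeloid partner of Fyb, rose by 0.79 ± 0.14 (SE) where Fyb fell by 0.38. Of 12 monocyte and macrophage markers, 10 rose in T2F3 MPP and 8 in T2F3 GMP, with median differences of 1.39 and 1.03. The shares called were 83.3% and 66.7%, beside 40.3% and 15.3% of all tested genes. The summed level of these markers ranged from 13.32 to 13.73 in WT MPP and from 14.45 to 15.08 in T2F3 MPP. In GMP it ranged from 14.94 to 15.25 in WT and from 15.6 to 16.24 in T2F3. The part of such cells in the counterparts' values was not tested.

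In T2F3 GMP 8 counterparts rose and 1 fell, with a median of 0.29 beside -0.02. Of the 18, 50.0% were called, beside 15.3% of all tested genes. Lat2, the adaptor that myeloid and B cells use in place of Lat, rose by 0.82 ± 0.19 (SE; limma adjusted p = 0.00736), while Lat fell by 0.93 in the same libraries. The Lat2 values of the 2 genotypes overlapped in GMP, whereas those of Lat did not. In T2F3 MPP Lat2 also rose, by 0.71 ± 0.20 (SE; limma adjusted p = 0.0114), where the Lat difference of 0.38 was not called. Bmx rose by 0.69 ± 0.13 (SE), Fcer1g by 0.65 ± 0.14 (SE) and Skap2 by 0.52 ± 0.13 (SE). The genotypes overlapped for Skap2 but not for Bmx or Fcer1g. Cd79a fell by 1.15 ± 0.24 (SE). By limma, 0 of the 18 had a genotype effect that differed between the populations at the threshold, beside 2.26% of all tested genes. The smallest limma adjusted p among them was 0.0584, for Cd79a.

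In the WT step from MPP to GMP 6 of the 18 rose and 5 fell, and in T2F3 5 rose and 3 fell. The calls made up 61.1% in WT and 44.4% in T2F3, beside 48.6% and 22.2% of all tested genes. In WT Fcer1g rose by 1.34 ± 0.13 (SE), Bmx by 1.19 ± 0.12 (SE) and Tyrobp by 1.48 ± 0.22 (SE). The falls were Fyn, already given, Src by 1.47 ± 0.15 (SE), Yes1 by 0.98 ± 0.13 (SE), Cd79a by 1.29 ± 0.22 (SE) and 1 more. In T2F3 Bmx rose by 1.48 ± 0.14 (SE), Fgr by 1.35 ± 0.29 (SE), Tyrobp by 0.98 ± 0.27 (SE) and Fcer1g by 0.92 ± 0.16 (SE). Yes1 fell by 1.47 ± 0.16 (SE), Src by 1.23 ± 0.18 (SE) and Fyn by 0.85 ± 0.14 (SE). Within the Src family, Lck, Fyn, Src and Yes1 thus stood lower in GMP than in MPP in both genotypes.

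**Figure D4:**
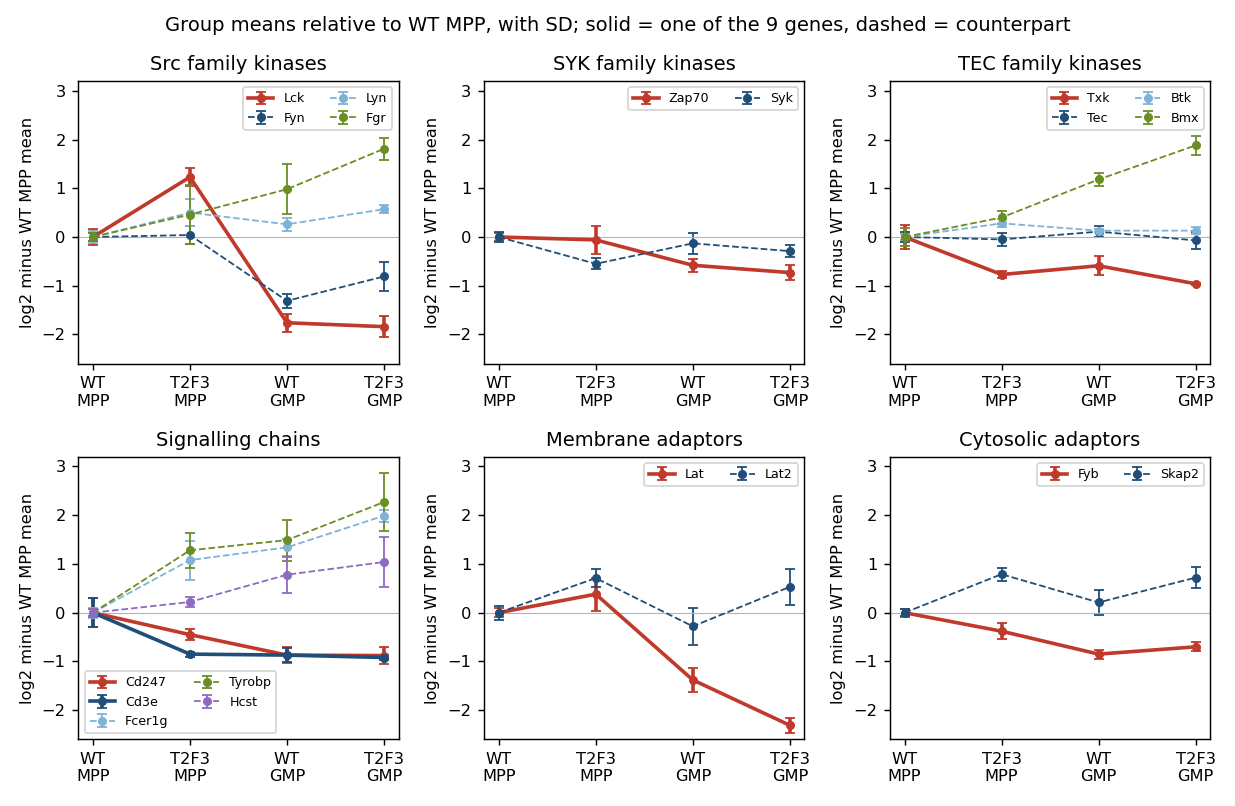
Group mean relative to the WT MPP mean (y axis, log2, with the SD of the group) in the 4 groups (x axis), for genes of the 9 (solid) and some of their counterparts (dashed), by family. Lck and Fyn drop from MPP to GMP, and Lat falls in T2F3 GMP while Lat2 rises in T2F3 MPP and T2F3 GMP.

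Markers of other cell types were read beside these values, because in sorted bulk samples fewer cells of a type and less RNA per cell cannot be told apart. Of 16 T cell markers outside the 9 genes, none was at 0, and 8 (Cd2, Cd5, Cd8b1, Lef1, Bcl11b, Themis, Trat1 and Icos) were under the filter. Their summed level, on a log2 scale, ranged from 8.73 to 9.1 in WT MPP, from 9.12 to 9.63 in T2F3 MPP, from 7.69 to 8.06 in WT GMP and from 8.3 to 8.65 in T2F3 GMP. Of the 8 tested, 2 rose in T2F3 MPP, Thy1 by 1.83 ± 0.16 (SE) and Cd6, already given, and 3 fell. Il7r fell by 1.91 ± 0.30 (SE), Cd4 by 0.66 ± 0.19 (SE) and Tcf7 by 0.62 ± 0.17 (SE). The share called was 62.5% in MPP and 37.5% in GMP, beside 40.3% and 15.3% of all tested genes. Thy1 made up much of the sum. Without it, a choice made after the values were seen, the sum of the other 15 ranged from 8.27 to 8.76 in WT MPP and from 7.79 to 8.58 in T2F3 MPP, with medians of 8.58 and 8.26, so the direction of the medians in MPP turned. In GMP it ranged from 7.35 to 7.68 in WT and from 7.61 to 7.88 in T2F3, with medians of 7.62 and 7.66.

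In GMP, Thy1 rose by 1.53 ± 0.15 (SE) and Ccr7 by 1.28 ± 0.22 (SE), and Tcf7 fell by 0.59 ± 0.17 (SE). For 15 natural killer and innate lymphoid cell markers, none at 0 and 8 under the filter, the summed level ranged from 10.82 to 11.16 in WT MPP and from 11.35 to 11.41 in T2F3 MPP. In GMP it ranged from 11.92 to 12.68 in WT and from 11.61 to 12.14 in T2F3. Nkg7 made up most of this sum, at a mean of 10.66 in WT MPP and 12.13 in WT GMP. Without Nkg7 alone, the sum was at most 9.07 in WT MPP and at least 9.68 in T2F3 MPP, without overlap. In GMP it then ranged from 8.13 to 8.41 in WT and from 8.11 to 8.95 in T2F3. Without Nkg7 and Il18r1, it ranged from 8.26 to 8.66 in WT MPP and from 7.74 to 8.65 in T2F3 MPP. In GMP it then ranged from 7.88 to 8.25 in WT and from 7.53 to 8.52 in T2F3. These removals were again chosen after the values were seen. Prf1, Gzma, Eomes and Ncr1, defining genes of natural killer cells, were under the filter. Of the 7 tested in MPP, Il18r1 and Klrd1 rose, by 2.58 ± 0.20 (SE) and 1.55 ± 0.45 (SE), and Il2rb, Il1rl1 and Klrb1c fell. The share called there was 71.4%, beside 40.3% of all tested genes. The part of T cells, natural killer cells and innate lymphoid cells in the values of Lck and Cd247 was not tested.

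Lat is also made in mast cells, basophils and platelets. Of 10 basophil and mast cell markers, none at 0, 7 were tested, and all 7 fell in T2F3 GMP, where Lat fell. Their summed level ranged from 12.59 to 13.21 in WT GMP and from 10.81 to 11.49 in T2F3 GMP. In T2F3 MPP 6 of the 7 fell, where Lat did not fall, and the sum ranged from 11.17 to 11.31 in WT MPP and from 10.13 to 10.37 in T2F3 MPP. In the WT step from MPP to GMP 6 of the 7 rose while Lat fell. The share of the 7 that was called was 100.0% in T2F3 GMP, 85.7% in T2F3 MPP and 100.0% in the WT step. Of all tested genes, 15.3%, 40.3% and 48.6% were called there.

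Of 12 megakaryocyte markers Gp6 was at 0, and the sum of the other 11 ranged from 10.22 to 10.66 in WT GMP and from 9.6 to 9.75 in T2F3 GMP. It ranged from 10.69 to 11.0 in WT MPP and from 9.71 to 10.49 in T2F3 MPP. Of the 7 tested, 3 fell in T2F3 GMP, and 1 rose and 3 fell in T2F3 MPP. The share called was 42.9% in GMP and 57.1% in MPP, beside 15.3% and 40.3% of all tested genes. The part of basophils, mast cells and megakaryocytes in the Lat values was not tested.

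Of 13 B lymphoid markers 9 were tested, of which 7 fell in T2F3 MPP and 6 in T2F3 GMP. Of 12 erythroid markers 10 were tested, and 9 fell in each population, with Hbb-b1 listed at 0. All 14 early lymphoid genes were tested: in T2F3 MPP 6 were called lower, and in T2F3 GMP 3 lower and 1 higher. Of 12 dendritic cell markers, 11 rose in each population, and their sum ranged from 12.48 to 13.41 in WT MPP and from 15.32 to 16.18 in T2F3 MPP. In GMP it ranged from 11.83 to 12.16 in WT and from 14.9 to 15.11 in T2F3. The part of these cells in the values of the 9 genes was not tested.

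Genes of the sorting gates also moved with genotype in MPP. Cd48 rose by 1.53 ± 0.17 (SE), Ly6a (Sca-1) by 0.63 ± 0.12 (SE) and Fcgr2b by 0.78 ± 0.11 (SE), and Kit fell by 0.92 ± 0.14 (SE). In GMP Cd48 rose by 0.69 ± 0.17 (SE) and Ly6a by 0.49 ± 0.11 (SE). The part of the gates in the values above was not tested.

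**Figure D5:**
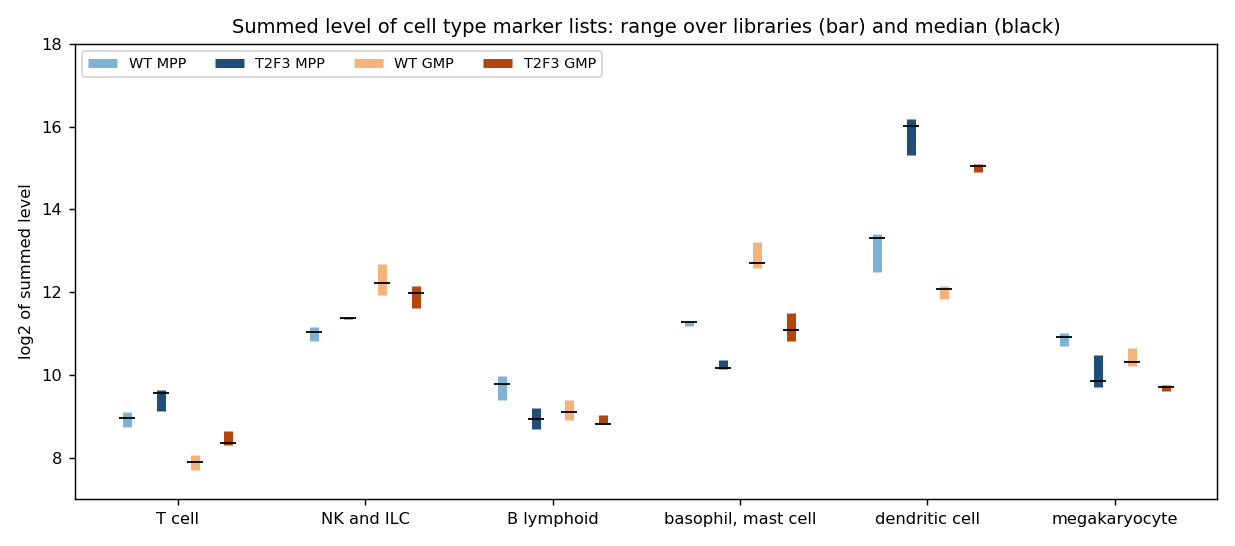
Summed level of marker lists of 6 cell types (x axis), as log2 of the sum (y axis), with bars from the lowest to the highest library of each group and a black line at the median. The T cell sums are higher in T2F3 in both populations. Without Thy1 their medians are 8.26 in T2F3 MPP and 8.58 in WT MPP, and 7.66 in T2F3 GMP and 7.62 in WT GMP. The ranges of the genotypes then overlap in both populations. The basophil and mast cell sums lie between 10.81 and 11.49 in T2F3 GMP, below those of WT GMP.

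The genes whose values followed each tested gene most closely over the 15 libraries were found by Pearson's r, as a description, since the libraries share population and genotype. For Lck they were Mycn (r = 0.983), a transcription factor of the Myc family, Gimap7 (r = 0.978), a GTPase of lymphocytes, and Pard6g (r = 0.971). Mycn averaged 7.26 in WT MPP, 9.25 in T2F3 MPP, 5.15 in WT GMP and 4.82 in T2F3 GMP, the same order of groups as Lck. For Lat they were Zcchc18 (r = 0.974), F2r (r = 0.973), a thrombin receptor, and Ptprcap (r = 0.971), a protein bound to CD45. For Fyb they were Mast4 (r = 0.977), Fam102a (r = 0.975) and Nsmf (r = 0.971), and Mast4 averaged 8.47 in WT MPP, 7.72 in T2F3 MPP, 6.78 in WT GMP and 6.97 in T2F3 GMP.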

How the data were processed

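Per the labels' protocols, a stranded mRNA kit was used. The authors' deposited table gives log2 values of 24424 Entrez IDs for 15 RNA-seq libraries. Its name marks them as regularized log values, while DESeq2, HOMER, STAR, Bowtie and mm9 appear in the submitters' processing notes without versions or roles. Symbols came from the NCBI gene table of GRCm38.p6, which matched 24345 IDs. Because that is not the submitters' build, coordinates are given for RefSeq promoter windows only. Exactly 0 in all libraries were 5135 genes. Pairs of identical libraries numbered 0, and libraries of a group correlated at 0.973 or more. The other 41 of 56 samples were not analysed here.

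Each gene with a mean of at least 4 entered 1 limma model (3.58.1, R 4.3.3; group means, eBayes with trend and robust), two-sided, with Benjamini-Hochberg adjustment over 12133 genes at 0.05, for 5 contrasts. The model was tested on simulated data. Named pathway and counterpart genes were those of smallest p, at most 6 per direction for genotype and 4 for the population step, and 3 genes most like each tested one. The 9 genes and all lists were chosen with earlier results of these data known. Alternatives were no filter, a mean of 6, a pseudocount of 8, median centring, quantile normalization, array weights, a fit with neither trend nor robust step, only the groups compared, 2 replicate blocks, leaving out the 2 libraries that stood apart, a ribosomal protein covariate, and each library left out. A planned search of protein sequences was not run, and some genes that the rule took are not reported here. Python 3.11.15 was used with Matplotlib 3.10.9, NumPy 2.4.6 and pandas 2.3.3.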

Additional observations from a re-analysis of the deposited data

Results flagged for a closer look

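In 18 groups of 4 or 5 libraries of the 9 genes, 3 held a library far from the others, where chance gives about 1 in 20. Lck was 5.96 in WT GMP 1, 0.37 log2 above the next library, and this library also had the highest ribosomal protein values of its group. Zap70 was 2.47 in WT GMP 3, 0.24 below the next. Txk was 3.3 in WT MPP 4, 0.46 above the next.

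The effect of genotype differed between MPP and GMP for the 3 tested genes by limma's test of that difference. It was -1.32 for Lck (adjusted p = 0.003), -1.3 for Lat (adjusted p = 0.00675) and 0.53 for Fyb (adjusted p = 0.0407), as GMP minus MPP. The Fyb call was lost with either replicate block (adjusted p = 0.0867 and 0.134) and in 9 of 15 fits that left out 1 library.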

How the results depend on the processing

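Over all alternatives, each value of Lck, Lat or Fyb was counted per contrast and per alternative. Of these values, which share fits, 284 kept their direction and side of the threshold, 17 lost the call, 2 gained it and 3 changed sign. Of the counts of calls, 265 stayed within 1.5 times the reported one and 41 did not. The Lat difference in MPP, 0.38, passed with only the groups compared (adjusted p = 0.0354) and without WT GMP 1 and T2F3 GMP 2 (0.0478). The Lck difference in GMP changed sign with array weights (0.14) and without both libraries (0.1), and ran from -0.2 to 0.019 with each library left out. Without the filter 7 of the 9 genes were called in MPP and 9 in the WT step.

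Genes called in MPP, 4889, were 7795 with array weights, and ran from 2859 (without T2F3 MPP 2) to 4522 with each library left out. In GMP, 1855 became 4103 with array weights, 1180 with only the groups compared and 2826 with the ribosomal covariate, and ran from 1174 (without T2F3 GMP 2) to 3759 (without WT GMP 1). For the difference of effects, 274 became 436 with no filter, 140 with a mean of at least 6, 1494 with array weights, 1204 without both libraries and 977 with the covariate, and ran from 79 (without T2F3 MPP 3) to 586 (without T2F3 MPP 1). In the T2F3 step, 2690 became 4389 with array weights and 4235 with the covariate. Of the 41 pathway genes, 16 were called in GMP with array weights. For the difference of effects 1 became 2 with no filter, 2 with centring, 4 with quantile normalization, 9 with array weights, 6 without both libraries and 7 with the covariate, and ran from 1 to 3. In the T2F3 step, the pathway calls ran from 8 (without T2F3 GMP 1) to 18 (without T2F3 MPP 1). The cause of these changes was not tested.

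The labels do not say whether a replicate number marks 1 animal. In the main fit the numbers were not taken as pairs, since not every same-numbered correlation passed 0.1. Of the same-numbered pairs 5 of 7 passed it, beside 4 of 22 pairs of other numbers. The main fit thus treats all libraries as independent, which would leave out a pairing if MPP and GMP share animals. Deviations of same-numbered MPP and GMP libraries correlated at 0.06, 0.46, 0.11 and 0.38 in WT and at 0.05, 0.2 and 0.3 in T2F3, positive in 7 of 7 pairs, beside 6 of 22 pairs of other numbers. As the deviations were taken from each group's mean, the pairs are not independent of each other. Not every library correlated best with its own number, so pairing was not settled. With the replicate block 2732 genes were called in MPP. The Fyb difference of effects was 0.52 (adjusted p = 0.0867), and 0.52 with a replicate block by genotype and number (0.134). It ran from 0.45 to 0.61 with each library left out. The Fyb T2F3 step, -0.32, was not called with either block (0.0557 and 0.0766) or with only the groups compared (0.0985), and ran from -0.4 to -0.23.

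The depth of each library is unknown, so no counting error can be given, and the shrinkage understates differences of the 6 low genes.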
